A study of Rattus norvegicus with 15 samples.

Results

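The potassium channels described here are 8 genes listed for a part in the membrane potential of arterial smooth muscle. They are Kcnma1, Kcnmb1, Kcnj8, Abcc9, Kcnj2, Kcna5, Kcnq5 and Kcnk3. They were taken by gene name from a table of 34357 genes with an identifier, and each of the 8 was found on 1 row. Total RNA was sequenced from the mesenteric artery and the cortex of the kidney in Dahl salt-sensitive (SS) rats, an inbred model of salt-sensitive hypertension. The deletion (KO) rats were missing 30.4 kb of noncoding DNA (rn7, chr2:60825801-60856216), the rat counterpart of the human linkage block around the blood pressure variant rs1173771. The groups were 4 deletion arteries and 4 wild-type (WT) arteries, and 4 deletion kidneys and 3 wild-type kidneys. Every animal was of the SS strain and labelled male, and age, diet and the number of deletion lines are not given in the sources used here. The comparisons ask what the loss of the interval does to RNA levels in each tissue. Of the 8 channel genes, 0 lie on chromosome 2.

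Potassium leaving a smooth muscle cell through these channels makes the cell interior more negative, which closes voltage-gated calcium channels and relaxes the vessel. The channels differ in what opens them. The large-conductance BK channel opens with calcium and depolarisation, the KATP channel opens when the ratio of ATP to ADP falls, and the inward rectifier Kir2.1 passes current near the resting potential. The voltage-gated Kv channels open on depolarisation, and the two-pore channel TASK-1 leaks at rest and closes in acid. Kcnma1 encodes the BK pore and Kcnmb1 its beta1 subunit, which raises the calcium sensitivity of the channel. Kcnj8 encodes the KATP pore Kir6.1 and Abcc9 its sulfonylurea receptor SUR2. Kcnj2 encodes Kir2.1, Kcna5 the voltage-gated Kv1.5, Kcnq5 the voltage-gated Kv7.5 and Kcnk3 TASK-1.

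Promoter sequence is shown for 3 genes that the comparisons turn on, as the part of the 250-base upstream window that lies outside the annotated gene, which is all of it for Kcnj8 and Kcnj2 and 165 bases for Kcnmb1. Kcnj8 had the smallest p of the 8 genes between genotypes in artery, Kcnj2 was the exception to the difference between tissues, and Kcnmb1 stood closest to the smooth muscle markers. Each run is upstream of the transcript start, 5′ to 3′ on the strand of the gene, from RefSeq on GRCr8, with CpG dinucleotides in capitals. The Kcnj8 run is chr4:177246549-177246798 on the minus strand, the Kcnj2 run is chr10:96559975-96560224 on the plus strand, and the Kcnmb1 run is chr10:19061849-19062013 on the plus strand.
Kcnj8: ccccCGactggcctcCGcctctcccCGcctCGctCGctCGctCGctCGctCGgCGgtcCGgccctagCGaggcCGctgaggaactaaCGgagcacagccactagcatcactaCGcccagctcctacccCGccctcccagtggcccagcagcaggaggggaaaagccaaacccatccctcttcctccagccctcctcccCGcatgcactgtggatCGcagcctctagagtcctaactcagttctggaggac
Kcnj2: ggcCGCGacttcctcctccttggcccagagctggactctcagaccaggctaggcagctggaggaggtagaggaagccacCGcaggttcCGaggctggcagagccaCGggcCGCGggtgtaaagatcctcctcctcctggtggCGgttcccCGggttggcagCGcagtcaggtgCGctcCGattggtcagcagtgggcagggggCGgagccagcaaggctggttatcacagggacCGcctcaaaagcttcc
Kcnmb1: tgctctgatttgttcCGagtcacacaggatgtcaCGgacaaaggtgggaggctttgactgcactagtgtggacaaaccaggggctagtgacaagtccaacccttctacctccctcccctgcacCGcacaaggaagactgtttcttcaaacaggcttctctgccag
The Kcnj8 run holds 18 CpG dinucleotides in 250 bases, the Kcnj2 run 14 in 250 bases, and the Kcnmb1 run 3 in 165 bases. Promoter windows were matched by symbol for 7 of the 8 genes, Kcnk3 being the other one. The windows of Kcnma1, Abcc9, Kcna5 and Kcnq5 lie wholly inside the annotated gene, downstream of its outermost start, so counts over the full 250 bases are not all of sequence outside genes. Over those bases Kcnma1 held 33 CpG, as many as or more than 97.0% of the 33469 rat promoters in the set, whose median was 5. Abcc9 held 19 and Kcnq5 20, while Kcnmb1 held 5 and Kcna5 held 3. The letters GGGCGG, searched on both strands, occurred in the windows of Kcnma1, Kcnj8, Abcc9 and Kcnj2 and in 30.5% of all promoters. The CArG box, the element bound by serum response factor, was in the windows of 0 of the 7 genes and in 1.5% of all promoters, and TATAAA was in 0 of the 7 and in 12.9%. No match says only that these letters are not in the window.

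The libraries carried the markers of their tissues. Acta2, smooth muscle actin, averaged 796 ± 234 FPKM in artery (SD, n = 8) and 11.04 ± 4.04 FPKM in kidney (SD, n = 7). Slc34a1, which takes up phosphate in the proximal tubule, averaged 0.343 FPKM in artery (n = 8) and 1039 FPKM in kidney (n = 7). FPKM are fragments scaled by gene length and library size, so levels of different genes can be set side by side. The arteries also held fat, with Adipoq at 716 ± 184 FPKM (SD, n = 8). The depth of the libraries is unknown, and their summed FPKM were 285679 to 433477 in artery and 376270 to 459847 in kidney. In these bulk samples, fewer cells of a type and less RNA per cell cannot be told apart. Nor do bulk samples show which cells the channel transcripts came from. The library labelled wild-type kidney 3 went against its male label, with Xist at 81.1 FPKM and the Y-linked Eif2s3y at 0. The library labelled wild-type artery 4 had 28.2% of its summed FPKM in 6 haemoglobin genes, against 1.38% to 10.4% in the other arteries.

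In artery the KATP and BK accessory subunits were the most abundant of the 8 transcripts. Abcc9 averaged 50.5 ± 5.78 FPKM and Kcnmb1 24.3 ± 5.96 FPKM over the 8 arteries (SD, n = 8). Kcnk3 followed at 13.3 ± 2.52 FPKM and Kcnj8 at 11.3 ± 2.201 FPKM (SD, n = 8). The other 4 were lower, with Kcna5 at 4.85 ± 1.64, Kcnma1 at 3.64 ± 1.07, Kcnj2 at 2.34 ± 0.543 and Kcnq5 at 1.455 ± 0.340 FPKM (SD, n = 8). Neighbouring genes in this order were compared by their difference within each library, over the 8 arteries. The exact sign-flip test on log2(FPKM + 0.5), two-sided and adjusted over the 7 pairs, gave p = 0.0182 for 6 of the pairs and 0.0234 for Kcnk3 over Kcnj8, where 0.00781 is the smallest unadjusted p the design allows. Kcnk3 and Kcnj8 were the closest neighbours, 0.24 apart on the log2 scale and in that order in 7 of 8 arteries. Kcnmb1 over Kcnk3, Kcnma1 over Kcnj2 and Kcnj2 over Kcnq5 also held in 7 of 8, and the remaining pairs in all 8. The order was read from the same libraries that the test used, so these p-values cannot support the order. In relative terms Abcc9 was the steadiest across the arteries, with a coefficient of variation of 11.4%, and Kcna5 the most variable, with 33.9%.

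**Figure D1:**
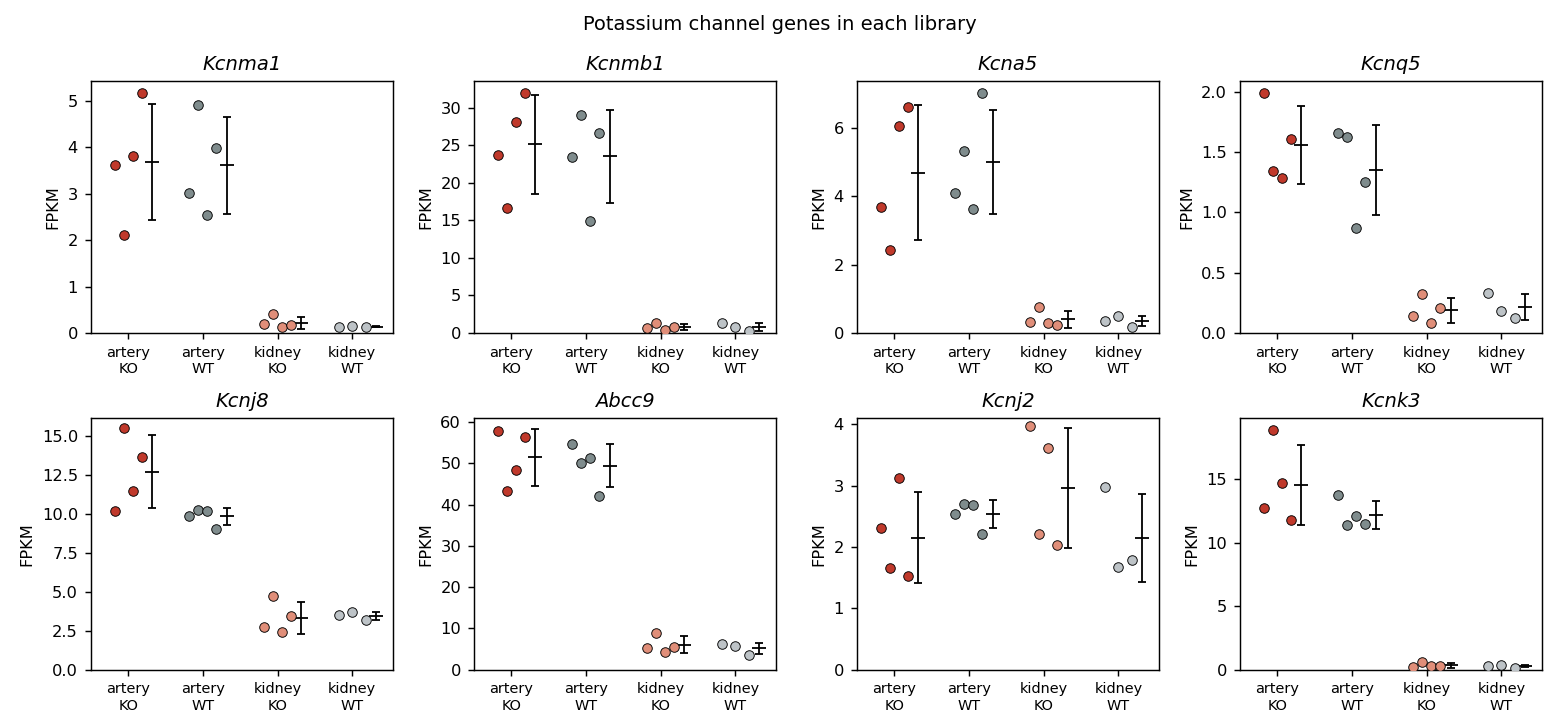
FPKM of the 8 channel genes in each library (vertical axis, linear from 0), with deletion (KO) left of wild-type (WT); points are libraries and bars the mean ± SD. For 7 genes every artery lies above every kidney, and for Kcnj2 the tissues overlap.

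Set against kidney cortex, 7 of the 8 channels were higher in artery and Kcnj2 was not. All 7 passed limma's test at an adjusted p under 0.05, and in all 7 the lowest artery lay above the highest kidney. Kcnma1, Kcna5, Kcnq5 and Kcnk3 averaged only 0.186, 0.378, 0.200 and 0.311 FPKM in kidney. They passed the filter on mean FPKM over both tissues through their artery levels. A gene that low in kidney can pass only when higher in artery, so the filter favours this direction for them. They kept their calls with no filter. The background is high, since 41.8% of the 16856 genes tested were called higher in artery and 35.2% lower, and 25.5% had every artery above every kidney. The median log2 difference over all genes was 0.11.

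The BK channel showed a wide gap between tissues. Kcnma1 had 3.61, 2.11, 3.80 and 5.17 FPKM in deletion arteries and 3.02, 4.90, 2.54 and 3.98 FPKM in wild-type arteries. In kidney it had 0.186, 0.416, 0.122 and 0.172 FPKM with the deletion and 0.132, 0.149 and 0.123 FPKM in wild type. Every kidney was under the added 0.5 FPKM, so the log2 difference of 2.58 ± 0.17 (SE) understates the 19.6-fold ratio of the FPKM means (adjusted p = 1.14e-09, limma). Kcnmb1 had 23.7, 16.7, 28.1 and 31.99 FPKM in deletion arteries and 23.5, 29.1, 14.98 and 26.7 FPKM in wild-type arteries. Its kidney values were 0.683, 1.40, 0.463 and 0.741 FPKM with the deletion and 1.31, 0.820 and 0.286 FPKM in wild type. No kidney came near an artery, and the log2 difference of 4.26 ± 0.21 (SE) was the largest of the 8 (adjusted p = 2.83e-11, limma; ratio of FPKM means 29.9).

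The KATP channel was detected in both tissues. Kcnj8, the pore, had 10.18, 15.5, 11.4 and 13.6 FPKM in deletion arteries and 9.85, 10.24, 10.2 and 9.04 FPKM in wild-type arteries. Its kidney values were 2.74, 4.74, 2.43 and 3.45 FPKM with the deletion and 3.50, 3.70 and 3.20 FPKM in wild type. The tissues were apart, with a fitted ratio of 3.01 (95% interval 2.51 to 3.60; adjusted p = 7.13e-09, limma). Abcc9, the receptor, had 57.9, 43.2, 48.5 and 56.4 FPKM in deletion arteries and 54.6, 50.1, 51.2 and 42.1 FPKM in wild-type arteries. In kidney it had 5.19, 8.97, 4.34 and 5.62 FPKM with the deletion and 6.31, 5.64 and 3.65 FPKM in wild type. Its fitted ratio of 8.54 (95% interval 6.93 to 10.5) was larger than that of its partner (adjusted p = 1.21e-11, limma). The table places the pair next to each other on rn7, Kcnj8 at chr4:175508908-175515829 and Abcc9 at chr4:175531854-175655849, both on the minus strand with 16.0 kb between them. The labels do not say whether strand was used in counting.

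The voltage-gated and leak channels were low in kidney. Kcna5 had 3.68, 2.41, 6.06 and 6.61 FPKM in deletion arteries and 4.09, 5.30, 3.61 and 7.02 FPKM in wild-type arteries, and its kidneys reached at most 0.756 FPKM. Kcnq5 had 1.99, 1.35, 1.28 and 1.61 FPKM in deletion arteries and 1.66, 1.63, 0.870 and 1.25 FPKM in wild-type arteries, and its kidneys reached at most 0.336 FPKM. Both were separated between tissues, by 2.57 ± 0.21 and 1.47 ± 0.14 on the log2 scale (SE; adjusted p = 1.3e-08 and 9.32e-08, limma). Kcnk3 had 12.7, 18.9, 14.7 and 11.8 FPKM in deletion arteries and 13.7, 11.4, 12.1 and 11.5 FPKM in wild-type arteries. Its kidneys lay at 0.200, 0.612, 0.266 and 0.263 FPKM with the deletion and 0.317, 0.345 and 0.175 FPKM in wild type. The ratio of the FPKM means, 42.9, was the largest of the 8 genes (log2 difference 4.10 ± 0.13 SE; adjusted p = 1.08e-13, limma).

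Kcnj2 stood at a similar level in both tissues. It had 2.30, 1.66, 3.13 and 1.52 FPKM in deletion arteries and 2.53, 2.70, 2.69 and 2.22 FPKM in wild-type arteries. Its kidney values were 3.98, 2.204, 3.61 and 2.04 FPKM with the deletion and 2.98, 1.67 and 1.79 FPKM in wild type. The tissues overlapped throughout, and the fitted ratio was 0.949 with an interval of 0.739 to 1.22, so a difference of up to about that size in either direction was not detectable (adjusted p = 0.695, limma). The order within kidney therefore differed, with Abcc9 at 5.67 ± 1.70, Kcnj8 at 3.40 ± 0.742 and Kcnj2 at 2.61 ± 0.918 FPKM (SD, n = 7) above the other 5 genes, which averaged under 1 FPKM. Kcnj8 was above Kcnj2 in 5 of 7 kidneys, and Kcnq5 above Kcnma1, the lowest, in 4 of 7.

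**Figure D2:**
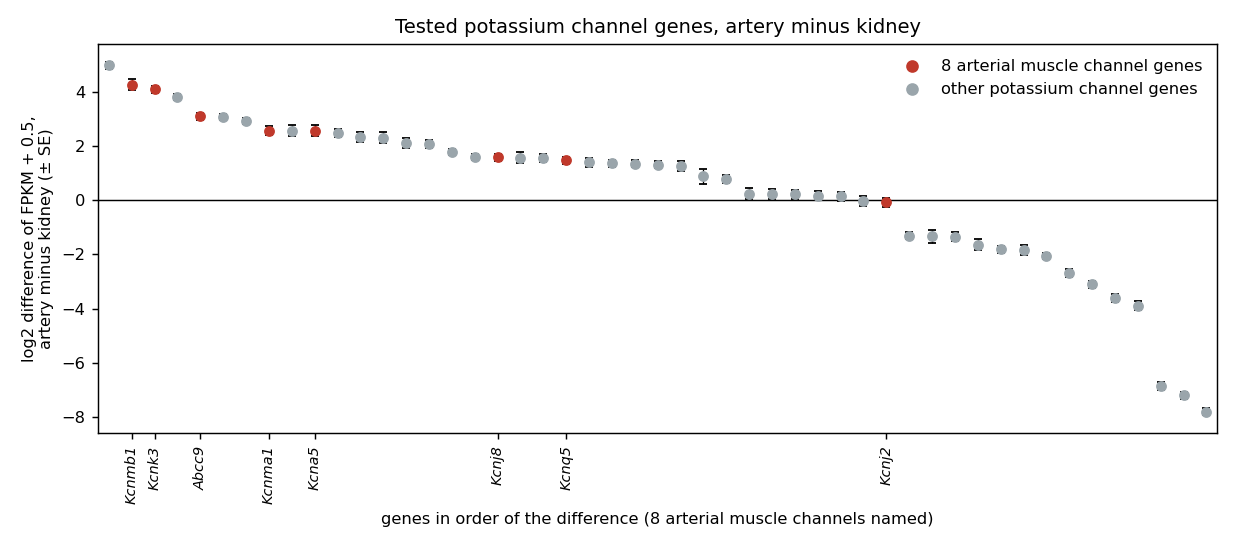
Log2 difference of FPKM + 0.5, artery minus kidney, for the 8 channels (red) and the other potassium channel genes tested (grey), with bars of ± SE and genes in order of the difference. The 8 channels run from -0.08 for Kcnj2 to 4.26 for Kcnmb1.

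The balance of the KATP subunits differed between tissues. Abcc9 over Kcnj8, receptor per pore transcript on the FPKM scale, was 4.62 ± 0.923 in artery (SD, n = 8) and 1.67 ± 0.268 in kidney (SD, n = 7), and every artery was above every kidney. Its log2 difference was 1.49 (exact permutation test, two-sided, adjusted over 6 tests, p = 0.000932), and 1.461 with no pseudocount. For BK the ratio rests on very low kidney values. Kcnmb1 over Kcnma1 was 6.80 ± 0.800 in artery, with a range of 5.90 to 7.90 (SD, n = 8), and 4.70 ± 2.51 in kidney, with a range of 2.32 to 9.97 (SD, n = 7). The tissues overlapped, since wild-type kidney 1, at 9.97, was above every artery. Kcnma1 lay under the added 0.5 FPKM in every kidney, so the log2 difference of 1.70 depends on that constant, and with no pseudocount it was 0.66 (exact permutation p = 0.0159, unadjusted). Between genotypes in artery neither ratio differed beyond its spread. Kcnmb1 over Kcnma1 was 7.01 ± 0.778 in deletion arteries and 6.58 ± 0.873 in wild-type arteries (SD, n = 4 each; adjusted exact permutation p = 0.549). Abcc9 over Kcnj8 was 5.68, 2.79, 4.25 and 4.13 in deletion arteries and 5.55, 4.89, 5.04 and 4.66 in wild-type arteries. Deletion arteries 2, 3 and 4 were under all wild-type values and deletion artery 1 was above them (log2 difference -0.28; adjusted exact permutation p = 0.386). The difference was -0.11 without deletion artery 2 and -0.44 without deletion artery 1. In kidney, deletion minus wild-type, Kcnmb1 over Kcnma1 differed by -0.12 and Abcc9 over Kcnj8 by 0.26 on the log2 scale. Neither passed (adjusted exact permutation p = 0.743 and 0.343). With 4 and 3 kidneys the smallest unadjusted p of this test is 0.0571, so it could not pass there.

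**Figure D3:**
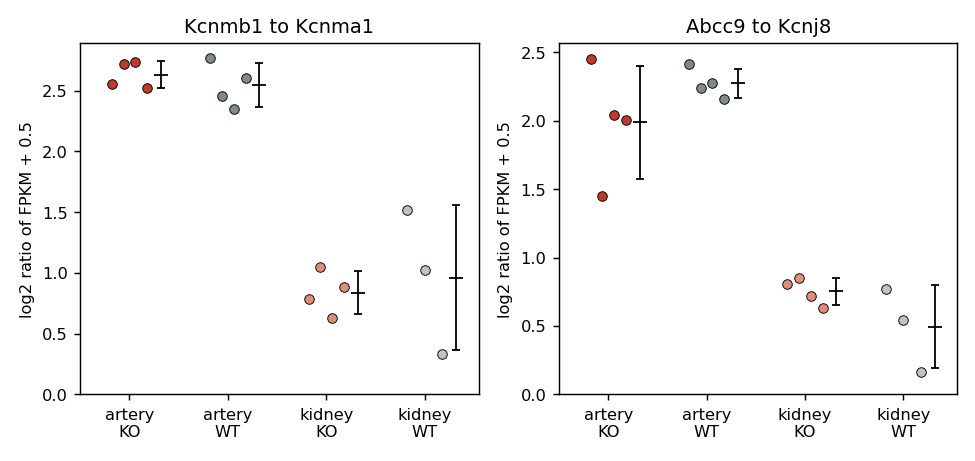
Log2 ratio of FPKM + 0.5 of the accessory to the pore subunit in each library, with deletion (KO) left of wild-type (WT); points are libraries and bars the mean ± SD. For Abcc9 over Kcnj8 every artery lies above every kidney; for Kcnmb1 over Kcnma1 the gap between tissues depends on the added 0.5 FPKM, and the plain FPKM ratios overlap.

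No channel was called as changed by the deletion in artery. limma called 0 of the 16470 genes tested (0%) at an adjusted p under 0.05, and 0 of the 8 channels. At an unadjusted p under 0.05 it gave 863 genes (5.24%), of which 613 (3.72% of those tested) were higher with the deletion. Among the channels 1 was in that set, Kcnj8, and 6 of the 8 log2 differences were positive, with a median of 0.07 against 0.04 over all genes tested. A total of 3.25% of genes had groups that did not overlap, and 0 of the 8 channels did.

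Kcnj8 averaged 12.7 ± 2.35 FPKM in deletion arteries and 9.82 ± 0.548 FPKM in wild-type arteries (SD, n = 4 each). Deletion arteries 2, 3 and 4 were above every wild-type artery, and deletion artery 1, at 10.18 FPKM, was under wild-type artery 2, at 10.24. The log2 difference was 0.34 ± 0.13 (SE; 95% interval 0.05 to 0.63), a ratio of 1.26, with an unadjusted p of 0.0273 and an adjusted p of 0.893 (limma). It was 0.24 without deletion artery 2, the highest, and 0.43 without deletion artery 1. Several marker lists also leaned to 1 side, with no gene called. Differences were positive for 5 of 5 mesothelium genes (median 0.93), 6 of 6 nerve and Schwann cell genes tested (median 0.38), 10 of 10 adipocyte genes (median 0.21), 8 of 8 pericyte genes (median 0.16) and 12 of 12 smooth muscle genes (median 0.13). They were positive for 0 of 10 erythrocyte genes (median -0.83) and 0 of 8 macrophage genes (median -0.25). The same held for 0 of 6 intestine genes tested (median -0.72) and 2 of 10 lymphocyte genes (median -0.36). With the smooth muscle mean as a covariate, and in the other settings that kept every library, the Kcnj8 difference was 0.29 to 0.35. Over the arteries Kcnj8 had r = 0.614 and rho = 0.214 with the adipocyte list (exact permutation p = 0.0914 and 0.619). With the pericyte list r was 0.0606. Apart from the covariate fit, the part of these lists in the Kcnj8 value was not tested. Abcc9, the KATP partner, averaged 51.5 ± 6.87 FPKM in deletion arteries and 49.5 ± 5.31 FPKM in wild-type arteries (SD, n = 4 each), a log2 difference of 0.05 with an interval of -0.23 to 0.34 (adjusted p = 0.958, limma). Without wild-type artery 4 it was -0.0220.

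The BK subunits had similar means in both genotypes, with wide intervals. Kcnma1 averaged 3.67 ± 1.25 FPKM in deletion arteries and 3.61 ± 1.05 FPKM in wild-type arteries (SD, n = 4 each), with a 95% interval of the log2 difference of -0.57 to 0.58. Kcnmb1 averaged 25.1 ± 6.57 FPKM in deletion arteries and 23.6 ± 6.17 FPKM in wild-type arteries (SD, n = 4 each), with an interval of -0.44 to 0.63. Kcna5 and Kcnj2 had negative differences that did not pass, of -0.13 ± 0.30 and -0.23 ± 0.20 (SE). Kcnk3 was at 14.5 ± 3.15 FPKM in deletion arteries and 12.2 ± 1.10 FPKM in wild-type arteries (SD, n = 4 each; log2 difference 0.23, interval -0.09 to 0.55), and Kcnq5 at 1.56 ± 0.323 FPKM in deletion arteries and 1.35 ± 0.371 FPKM in wild-type arteries (log2 difference 0.16). The Kcnk3 difference was 0.0980 without deletion artery 2, and the Kcnq5 difference was 0.0252 without wild-type artery 3 and 0.0659 without deletion artery 1. All 8 adjusted p-values in artery were 0.893 or above (limma).

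**Figure D4:**
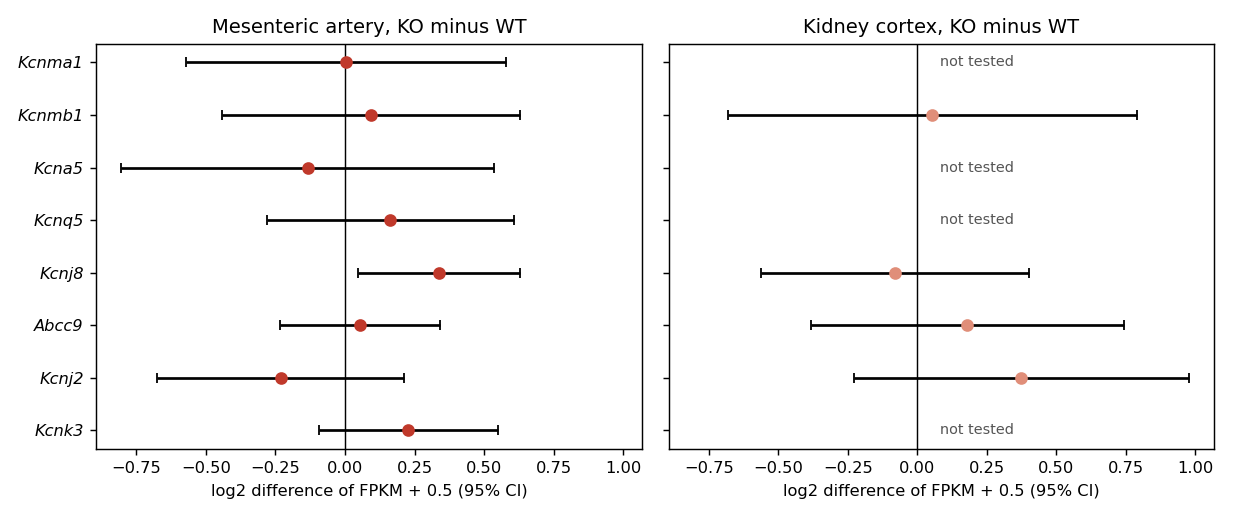
Log2 difference of FPKM + 0.5, deletion minus wild-type, in artery and kidney, with 95% intervals. Kcnj8 in artery, at 0.34, is the interval that lies off 0.

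In kidney 4 of the 8 channels passed the filter of a mean of 0.5 FPKM, and Kcnma1, Kcna5, Kcnq5 and Kcnk3 did not. limma called 0 of 15444 genes (0%), with 217 (1.41%) at an unadjusted p under 0.05, and 0 of the 4 channels in either set. Kcnj8 averaged 3.34 ± 1.02 FPKM in deletion kidneys (SD, n = 4) and 3.47 ± 0.252 FPKM in wild-type kidneys (SD, n = 3), a log2 difference of -0.08 with an interval of -0.56 to 0.40. Abcc9 and Kcnmb1 differed by 0.18 and 0.05, and without the library labelled wild-type kidney 3 these were -0.03 and -0.27. Kcnj2 had the largest difference, 0.37 ± 0.27 (SE), with 2.96 ± 0.981 FPKM in deletion kidneys (SD, n = 4) and 2.15 ± 0.722 FPKM in wild-type kidneys (SD, n = 3). It was 0.59 without wild-type kidney 1 and 0.24 without deletion kidney 1. All 4 adjusted p-values were 0.999 (limma).

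Whether the deletion acted differently in the tissues was tested as an interaction. It called 0 of 16856 genes (0%) and had 740 (4.39%) at an unadjusted p under 0.05. Of the 8 channels, 0 were in either set. Kcnma1, Kcna5, Kcnq5 and Kcnk3 were too low in kidney to be tested there, and entered the interaction through their artery levels. The added pseudocount shrinks log2 differences at such low levels. For these genes the interaction therefore cannot decide whether the deletion acted differently in kidney. Kcnj8, with 0.34 in artery and -0.08 in kidney, had an artery minus kidney difference of effects of 0.42 ± 0.24 (SE; adjusted p = 0.943, limma). Kcnj2 had -0.61 ± 0.34 (SE), the largest of the 8 in size and also short of the threshold. For the other 6 the differences lay between -0.20 and 0.22 over all libraries. Without wild-type kidney 3 the Kcnmb1 value was 0.37, against 0.04 with it, and the Abcc9 value was 0.0863, against -0.13. Without wild-type artery 4 the Kcna5 value was -0.0409, against -0.20.

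The BK transcripts varied from artery to artery together with the smooth muscle markers. The mean log2 level of 12 smooth muscle genes was 6.63, 6.39, 6.82 and 7.06 in deletion arteries and 6.52, 6.97, 6.04 and 6.86 in wild-type arteries, and wild-type artery 3 was the lowest. Kcnmb1 followed it with Pearson r = 0.966 (exact permutation p = 7.44e-05, adjusted over 40 relations 0.00298) and Spearman rho = 0.976 over the 8 arteries. Without the 2 libraries farthest from the median of the list r was 0.965, and over deviations from the genotype means it was 0.967. Kcnma1 had r = 0.899 (exact permutation p = 0.00206, adjusted 0.0412), rho = 0.976, and r = 0.965 without the 2 farthest. Kcna5 had r = 0.769, which did not pass after adjustment (exact permutation p = 0.0234, adjusted 0.156). Kcnj8, Abcc9, Kcnj2 and Kcnk3 did not follow the list, with r of 0.0126, 0.0658, -0.155 and -0.368, and Kcnq5 had 0.547. Subtracting the list mean from each library left an SD of 0.10 of the 0.38 of Kcnmb1 in log2 units, and 0.17 of the 0.39 of Kcnma1. With the pericyte list r was 0.824 for Kcnmb1, 0.677 for Kcnma1 and 0.805 for Kcnq5. With the endothelial list it was 0.613, 0.708 and 0.0627 for the same genes. None of these passed after adjustment (exact permutation, smallest adjusted p = 0.107). Whether the BK relation is particular to the smooth muscle list was not tested.

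Kcnk3 instead stood highest where fat markers did. The mean log2 level of 10 adipocyte genes was 7.37, 8.20, 7.83 and 7.35 in deletion arteries and 7.69, 7.46, 7.37 and 7.39 in wild-type arteries. The correlation with Kcnk3 was r = 0.959 (exact permutation p = 0.0031, adjusted 0.042), but rho was 0.595 (exact permutation p = 0.132) and r without the 2 farthest libraries was 0.692. It thus rests on deletion arteries 2 and 3, the highest in both. With the brown fat list Kcnk3 had r = -0.23 and rho = -0.33 (exact permutation p = 0.55 and 0.428). The part of the fat markers in the Kcnk3 values was not tested. In kidney, 16 such relations over 7 libraries, to the smooth muscle and pericyte lists, gave none past the adjusted threshold. With the smooth muscle list r was 0.908 for Kcna5, 0.871 for Kcnma1, 0.853 for Abcc9 and 0.814 for Kcnk3. It was 0.745 for Kcnmb1, 0.744 for Kcnj8, 0.644 for Kcnq5 and -0.0856 for Kcnj2. The smallest adjusted p was 0.0673 (exact permutation). Without the 2 kidneys farthest from the median of that list, r ran from -0.128 for Kcnj8 to 0.848 for Kcna5.

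**Figure D5:**
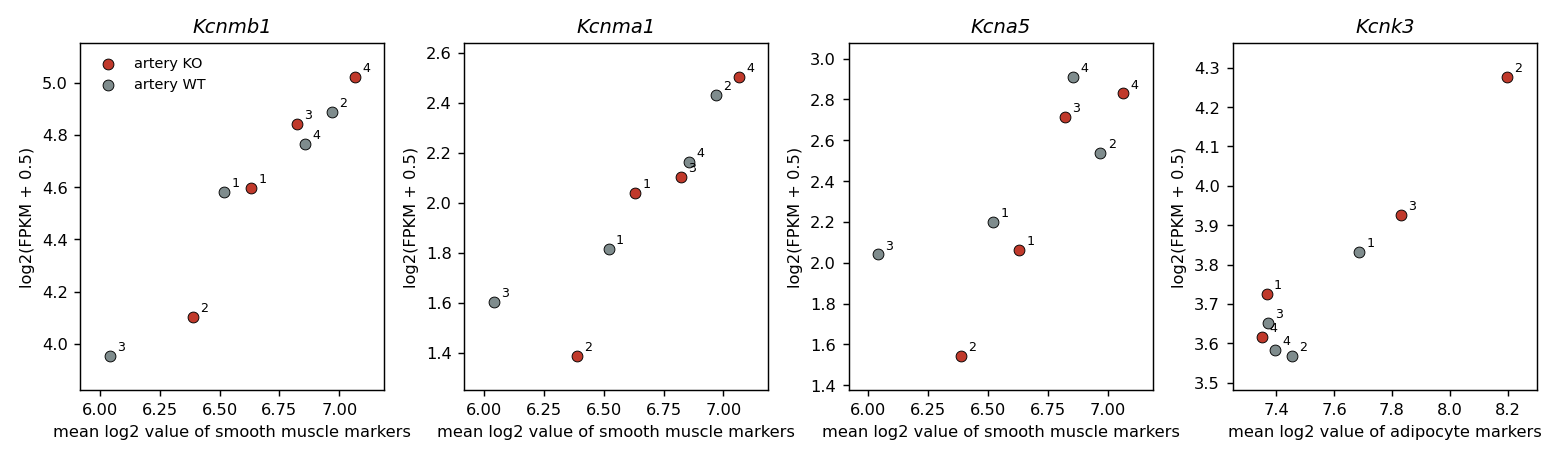
Log2(FPKM + 0.5) of a channel gene (vertical) against the mean log2 level of a marker list (horizontal) over the 8 arteries; numbers are the replicate numbers and colours the genotype. Kcnmb1 and Kcnma1 follow the smooth muscle list, with r of 0.966 and 0.899, and Kcnk3 the adipocyte list with 2 libraries at the far end.

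The genes most like each channel over the 8 arteries, among 14546 with a mean of at least 1 FPKM, were taken by Pearson r as a description. For Kcnmb1 they were Pde1a (0.985), Atp2b4 (0.984) and Pde5a (0.980), Pde1a and Pde5a encoding cyclic nucleotide phosphodiesterases and Atp2b4 a plasma membrane calcium pump. For Kcnma1 they were Nt5dc3 (0.985), Inka2 (0.984) and Myocd (0.981), Myocd being the smooth muscle transcriptional coactivator myocardin. For Kcna5 they were Vit (0.980), Gja4 (0.974), which encodes the gap junction protein connexin 37, and Gask1b (0.961). For Kcnk3 they were Grifin (0.994), Aifm2 (0.984) and Aqp7 (0.973), Aqp7 being a glycerol channel of fat cells, with a rho of 0.690. For Kcnj8 they were Pmm1 (0.977), Cyb5r1 (0.973) and Mlst8 (0.973), and for Abcc9 Rspo3 (0.966), Gbf1 (0.960) and Pogz (0.959). For Kcnj2 they were Dus4l (0.984), Llph (0.962) and Man1a2 (0.948), and for Kcnq5 LOC108350109 (0.979), Faxdc2 (0.976) and Drc3 (0.974). With 8 libraries and this many genes such values are descriptions only.

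Beyond the 8, another 91 potassium channel genes were listed and 41 were tested between tissues. Of these, 21 were higher in artery, 14 were lower and 6 were not called (limma), with a median log2 difference of 0.79. Over all genes tested 41.8% were called higher and 35.2% lower, with a median of 0.11. Among the 41, the Kir genes ran the other way, with 0 of 8 tested genes called higher, 6 lower and 2 not called. Kcnj8, called higher, and Kcnj2, not called, are also Kir genes and were counted with the 8 channels. Kcnj16 averaged 0.151 FPKM in artery (n = 8) and 144 ± 26.3 FPKM in kidney (SD, n = 7), and Kcnj15 and Kcnj1, the ROMK channel of the distal nephron, averaged 0.475 and 0.0567 FPKM in artery and 142 ± 21.0 and 66.1 ± 17.7 FPKM in kidney (SD, n = 7). In artery the most abundant were Kcnn3, a small-conductance calcium-activated channel of endothelium, at 17.3 ± 3.78 FPKM, then Kcnh2 at 9.62 ± 1.78 and Kcnab1, a Kv1 accessory subunit, at 7.83 ± 2.48 FPKM (SD, n = 8). Between genotypes in artery 34 of the 91 were tested, 0 were called and 3 had an unadjusted p under 0.05. Over all genes tested in artery 5.24% were at that level. Among the 3 was Kcnh2, with 10.3, 11.6, 10.2 and 11.7 FPKM in deletion arteries and 7.35, 10.2, 7.18 and 8.40 FPKM in wild-type arteries (unadjusted p = 0.00976, limma). In kidney 28 were tested and 0 called, with 1 at an unadjusted p under 0.05, and in the interaction 41 were tested and 0 called, with 2 at that level (limma). Over all genes tested 1.41% were at that level in kidney and 4.39% in the interaction.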

How the data were processed

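RNA-seq of total RNA gave 15 libraries, grouped by the sample titles. The authors deposited FPKM values, fragments per gene scaled by gene length and library size; per the submitters' processing notes, DESeq2 1.46.0, HISAT2 2.2.1, Trim Galore 0.6.2 and rn7 are named without a role, and nothing says how the FPKM were made. A deposited coverage column of no stated sample was not used. Whole reads could not be recovered from low values, so depth and counting error are unknown. Of 40694 rows, 34357 carry an identifier and were kept; 1 column was not used.

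Tests ran on log2(FPKM + 0.5) over genes averaging 0.5 FPKM or more, by limma 3.58.1 (lmFit, eBayes with trend and robust) in R 4.3.3, adjusted by the Benjamini-Hochberg method over all genes tested and called under 0.05. The log2 fold changes understate the change of low genes. Ratios, order and marker relations used exact two-sided permutation tests in SciPy 1.17.1 on Python 3.11.15. No label ties libraries to animals, so p-values measure the spread between libraries. Scripts were tested on simulated data. Named genes were all 8 channels, the 3 closest genes to each, and the 3 other channels highest in each tissue. The members and lists were chosen with earlier results of these data known. Alternatives were pseudocounts of 0.1 and 1, no filter or 1 FPKM, median-of-ratios scaling, a replicate block, 1 fit over both tissues, the smooth muscle mean as a covariate, each library left out, and, chosen after seeing the data, leaving out both wild-type kidney 3 and wild-type artery 4, and the subunit ratios with no pseudocount. Promoters are RefSeq, GRCr8; coordinates of genes are the table's rn7. Figures used matplotlib 3.10.9.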

Additional observations from a re-analysis of the deposited data

Results flagged for a closer look

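In the 4 deletion kidneys, library 2 stood far above the others for Kcna5 and Kcnk3. Kcna5 was at 0.756 FPKM there and between 0.230 and 0.312 FPKM in the other 3, and Kcnk3 was at 0.612 FPKM and between 0.200 and 0.266 FPKM. The gap to the nearest library made up 0.845 and 0.840 of the range of the group, above Dixon's 95% critical value for 4 samples. Of the 24 groups of 4 examined, 2 met the limit, and such a limit is passed by chance in about 5% of groups. The same library had the highest smooth muscle mean of the kidneys (2.16 against 1.47 to 1.80), the highest podocyte mean (4.72 against 3.68 to 4.35) and the lowest proximal tubule mean (7.67 against 8.16 to 8.41). Their part in the result was not tested.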

How the results depend on the processing

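The differences between tissues kept their calls for all 7 channels and the absence of a call for Kcnj2 in every alternative run, except that Kcnq5 was not tested under the filter of 1 FPKM. In artery the count of genes called between genotypes was 0, and 1 with a pseudocount of 0.1. With each library left out it ran from 0 to 1 in artery and from 0 to 1 in kidney, no called gene being a channel. Non-significant differences that changed sign were Kcnma1 in artery, -0.0402 with median-of-ratios scaling and -0.13 with the smooth muscle covariate, and Kcnmb1, -0.0484 in artery and -0.0390 in kidney with that covariate and -0.0248 for the interaction with a pseudocount of 0.1. Without wild-type kidney 3 and wild-type artery 4, Abcc9 and Kcna5 had interactions of 0.0113 and 0.10. Leaving out libraries in turn gave, in artery, -0.16 to 0.21 for Kcnma1, -0.10 to 0.27 for Kcnmb1, -0.0220 to 0.13 for Abcc9 and -0.32 to 0.11 for Kcna5. In kidney it gave -0.27 to 0.33 for Kcnmb1, -0.24 to 0.0366 for Kcnj8, -0.0333 to 0.32 for Abcc9 and -0.43 to 0.16 for the log2 ratio of Kcnmb1 to Kcnma1. For the interaction it gave -0.34 to 0.0370 for Kcnma1, -0.24 to 0.37 for Kcnmb1, -0.27 to 0.0863 for Abcc9 and -0.38 to 0.0447 for Kcna5, and for Kcnj2 between tissues -0.16 to 0.0317. The cause was not tested. Kcnj8 in artery stayed positive, with unadjusted p of 0.00672 to 0.0734 and adjusted p of 0.713 to 0.974 (limma). The replicate number as a block left 0 called between genotypes in both tissues and 12770 between tissues. Between tissues the block joined arteries and kidneys of the same genotype and number. The correlation of same-numbered deletion and wild-type deviations was 0.321, -0.342, 0.244 and 0.302 in artery. In kidney it was 0.0819, -0.00785 and 0.273. These values cover pairs within a tissue, and cannot decide whether an artery and a kidney came from 1 animal. The numbers were not taken as pairs. The unknown depth and the groups of 3 or 4 limit the size of change that could be seen.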
